A study of Danio rerio with 9 samples.

Results

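The antioxidant and glutathione genes described here are 66 of the 8793 zebrafish genes that the arrays measured with at least 1 probe set of a single gene symbol. They were taken by a rule on gene symbols, which was set with earlier results of these data known. The rule covers the NRF2 pathway regulators keap1 and nfe2l, the glutathione synthesis and recycling genes, superoxide dismutases and catalase, glutathione peroxidases, peroxiredoxins, the thioredoxin system, glutaredoxins, methionine sulfoxide reductases, glutathione S-transferases, nqo1, ferritins and genes whose symbol begins with selen. Each gene was read from its probe set of highest mean signal over the 9 arrays, and 11 of the 66 had more than 1 probe set.

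Cells use many of these genes to remove reactive oxygen species and to keep protein thiols reduced, while some that the symbol rule took have other tasks. Glutathione is made from cysteine, glutamate and glycine, with glutamate-cysteine ligase as the rate-limiting step, and oxidised glutathione is recycled with NADPH. Superoxide dismutases turn superoxide into hydrogen peroxide, which catalase, glutathione peroxidases and peroxiredoxins then remove, and the transcription factor NRF2, held in check by KEAP1, drives many of these genes under oxidative stress. In leukaemias, MYC-driven growth raises the production of reactive oxygen species, and developing lymphocytes are known to depend on glutathione and thioredoxin for proliferation.

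The study compared zebrafish models of T cell acute lymphoblastic leukaemia as classes, and its title concerns infiltration of the central nervous system. In the hMYC-ER model, represented by 6 arrays numbered 1 to 6, the transgene is a fusion of human MYC with part of the oestrogen receptor, and the model hlk, represented by 3 arrays numbered 7 to 9, is a heritable line prone to T cell malignancy. All 9 samples were labelled as T-lymphoblasts positive for green fluorescent protein that had been sorted by flow cytometry from fish bodies at the end of the disease, and total RNA was extracted with Trizol. The promoter that drives the transgene, the age, sex and strain of the fish, any drug given to activate the fusion protein, and whether the arrays came from separate fish were not stated in these sources, so the p-values reflect only sample-to-sample spread, which may be technical.

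The deposited values are fluorescence signals, scaled by the authors to a common trimmed mean, and the array medians ran from 88.9 to 110.3. Values below are log2 signals after quantile normalization with a floor at 4.00, and every difference is hMYC-ER minus hlk on that scale, so that 1 unit is a 2-fold difference. Adjusted p-values come from limma over all 8793 genes, a gene is called changed at an adjusted p under 0.05, and differences of genes that reach the floor depend on where it is set. On hlk array 7, the ratio of the 3' to the 5' control probe sets for gapdh, a measure of RNA integrity, was 50.8, against 2.2 to 4.5 on the other 8 arrays, so results that rest on this array are given without it as well. The labelled cell type was checked against markers. The summed signal of 9 measured B cell markers, of 21 listed, was 57173 to 71204 on the hMYC-ER arrays and 5386 to 8365 on the hlk arrays. For 8 measured genes of a T cell list of 27, the sum was 1855 to 3797 and 26798 to 33631. On hlk arrays most of the B cell sum came from cd74a and cd74b, at 11.77 to 12.49 and 10.68 to 11.18. The other B cell markers lay at 4.00 to 6.62 there. The largest part of the T cell sum on hlk arrays came from runx3, at 13.89 to 14.11. All 9 B cell markers were higher on hMYC-ER arrays, and 5 of the 8 genes of the T cell list on hlk arrays. Of these 5, 4 did not overlap between the models, and rag1 did, at 7.22 on hlk array 7. The other 3 genes of that list, rag2, tox and cd28, did not pass, with differences of 1.25, 0.76 and 0.28 (hMYC-ER minus hlk). Without array 7 that of rag2 was -0.50. The hMYC-ER arrays therefore go against their T-lymphoblast label, with pax5 at 10.82 to 11.27 there and at 4.93, 4.00 and 4.00 on hlk arrays 7, 8 and 9, while the T cell receptor gene trac stood at 6.26 to 8.88 against 12.06, 10.13 and 12.65. Each difference below is thus a difference between these arrays, and lineage, batch and model cannot be told apart. In such bulk samples fewer cells of a type and less RNA per cell cannot be told apart either.

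Of the 66 genes, 21 were changed (31.8%), beside 22.0% of all genes. The arrays of hMYC-ER were higher in 12 of them, where the share over all genes was 10.4%, and those of hlk were higher in 9, where it was 11.6%. A difference of at least 2-fold was found in 9 of the changed genes, 7 higher on hMYC-ER arrays and 2 higher on hlk arrays, while 13.1% of all genes met both criteria. An unadjusted p under 0.05 was reached by 29 members, beside 34.5% of all genes. The 66 genes had no common direction, with a median difference of -0.06 beside -0.08 over all genes. The values of the 2 models did not overlap for 8 members higher on hMYC-ER arrays and 8 higher on hlk arrays, where 23.1% of all genes did not overlap. With arrays centred on their medians in place of quantile normalization, 8 members were higher on hMYC-ER arrays, beside 9.08% of all genes, and 9 on hlk arrays, beside 13.2% (22.2% in either direction), and the median difference over all genes moved from -0.08 to -0.18.

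**Figure D1:**
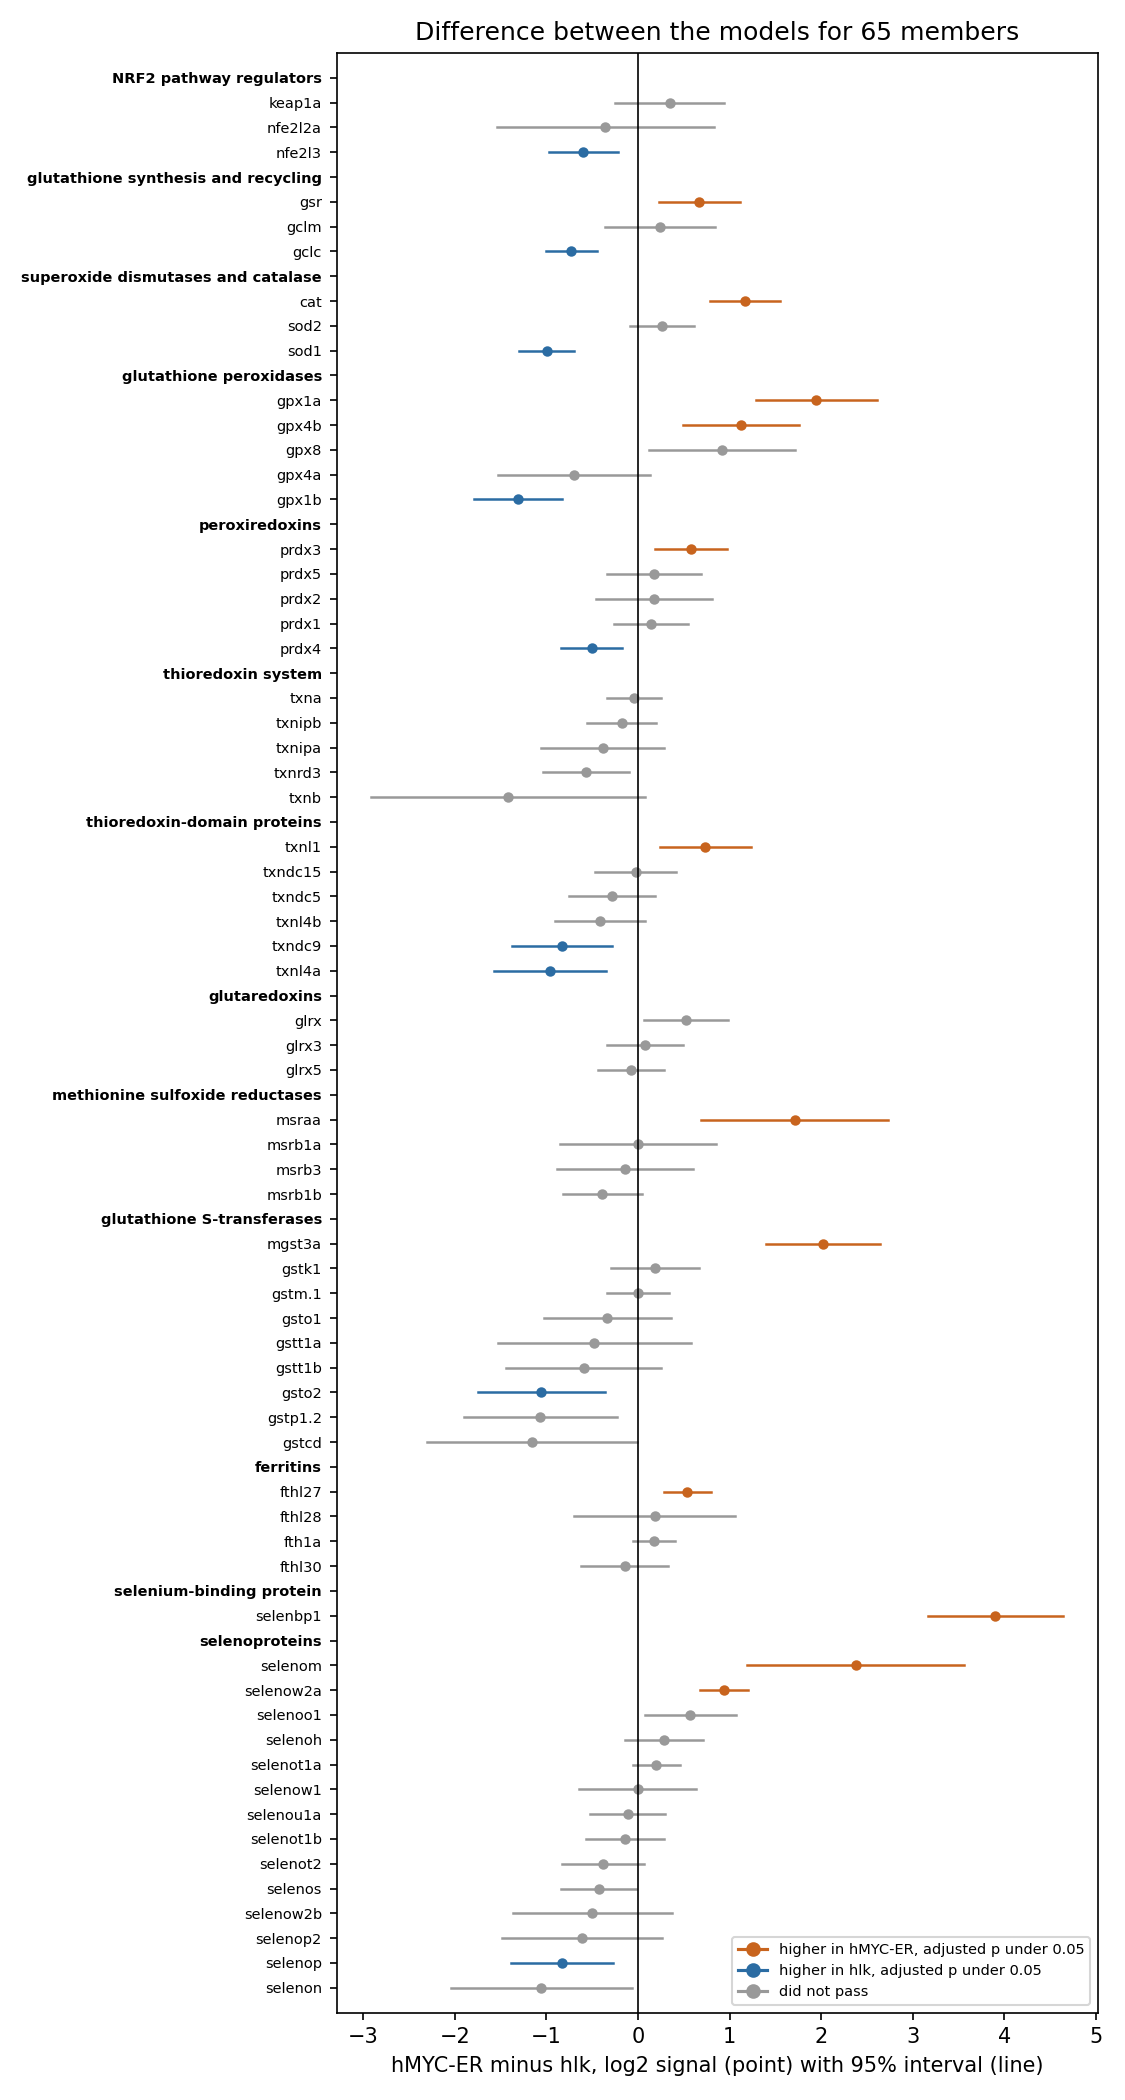
Difference between the models for 65 of the 66 genes (x axis, hMYC-ER minus hlk in log2 signal, point, with its 95% interval, line), grouped by role on the y axis; nqo1, at the floor on all arrays, is left out. Orange points are the 12 genes higher on hMYC-ER arrays, blue points the 9 higher on hlk arrays, grey points did not pass, and most roles hold genes on both sides of 0.

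Of the 3 regulators measured, only nfe2l3, which encodes a relative of NRF2, passed the test, and it was higher on hlk arrays. The regulators keap1b, nfe2l1a, nfe2l1b and nfe2l2b were not among the measured genes. Neither were gss or any hmox or srxn gene, which the rule also covers. The signal of nfe2l3 ran from 9.55 to 10.19 with a median of 9.74 on hMYC-ER arrays and was 10.60, 10.41 and 10.20 on hlk arrays 7, 8 and 9. The ranges came close without overlapping, and the difference was -0.60 (SE 0.16, adjusted p 0.0331), or 1.51-fold higher on hlk arrays. This call was lost in 6 of the 9 fits that left out 1 array, those without array 1, 3, 4, 6, 7 or 8 (adjusted p 0.0580 to 0.0969). For nfe2l2a, a zebrafish gene for NRF2, signals of 5.99 to 7.79 (median 6.64) on hMYC-ER arrays lay around the 5.96, 7.17 and 8.07 of hlk, so the groups overlapped widely. The difference was -0.36 (SE 0.52, 95% interval -1.54 to 0.83, adjusted p 0.677), and its 2 probe sets differed in sign. The NRF2 inhibitor gene keap1a ran from 6.45 to 7.43 (median 7.13) against 6.71, 6.34 and 7.20, a difference of 0.35 (SE 0.26, 95% interval -0.25 to 0.94, adjusted p 0.394). The array did not resolve nqo1, the quinone reductase gene that serves as a standard NRF2 target, since its deposited signals lay between 1.22 and the floor on all 9 arrays.

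The glutathione synthesis and recycling genes were split. The catalytic subunit of glutamate-cysteine ligase, gclc, was higher on hlk arrays, with 8.56 to 8.99 (median 8.69) on hMYC-ER arrays and 9.42, 9.60 and 9.43 on hlk arrays 7, 8 and 9. All 3 hlk arrays thus lay above all 6 hMYC-ER arrays, and the difference was -0.73 (SE 0.12, adjusted p 0.0035), 1.65-fold. Its modifier subunit gclm did not pass, at 8.47 ± 0.34 (SD, n = 6) on hMYC-ER arrays and 8.23 ± 0.48 (SD, n = 3) on hlk arrays (0.24, SE 0.26, adjusted p 0.571). Glutathione reductase, gsr, which recycles oxidised glutathione with NADPH, was higher on hMYC-ER arrays, at 8.50 ± 0.17 (SD, n = 6) against 7.83 ± 0.45 (SD, n = 3). The groups overlapped, because hlk array 9 at 8.32 lay above the lowest hMYC-ER array at 8.26, and the difference was 0.67 (SE 0.19, adjusted p 0.0398). Leaving out any of arrays 1, 2, 3, 4, 6, 7 or 8 ended the call for gsr (adjusted p 0.0541 to 0.115).

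Superoxide dismutase 1 and catalase, which act in sequence on superoxide and hydrogen peroxide, lay in opposite directions. For the cytosolic copper-zinc enzyme gene sod1, signals ran from 11.69 to 12.05 (median 11.85) on hMYC-ER arrays and were 13.10, 12.65 and 12.80 on hlk arrays 7, 8 and 9. The hlk arrays were all above the hMYC-ER arrays, 1.99-fold on average (-0.996, SE 0.13, adjusted p 0.0012). Catalase, cat, showed the reverse, with 9.11 to 9.79 (median 9.53) on hMYC-ER arrays against 8.43, 8.12 and 8.36 on hlk arrays. Again no arrays overlapped, and cat was 2.25-fold higher on hMYC-ER arrays (1.17, SE 0.17, adjusted p 0.0017). The mitochondrial enzyme gene sod2 did not pass, at 11.29 ± 0.17 (SD, n = 6) and 11.03 ± 0.27 (SD, n = 3), which is a difference of 0.26 (SE 0.15, 95% interval -0.08 to 0.61, adjusted p 0.264). Both sod1 and cat passed in every fit that left out 1 array, and without hlk array 7 their differences were -0.87 and 1.23.

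**Figure D2:**
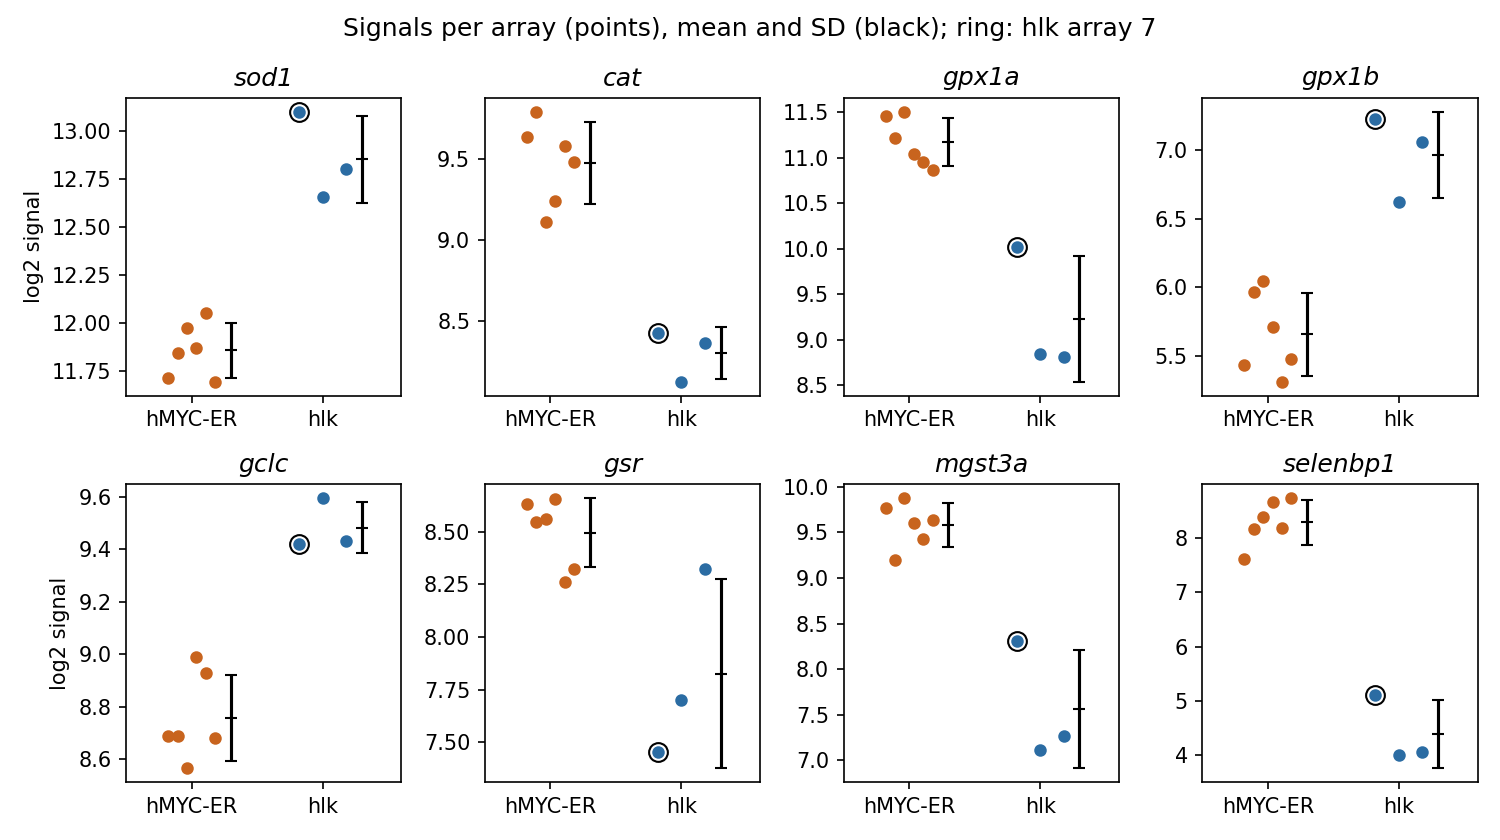
Log2 signal (y axis) of sod1, cat, gpx1a, gpx1b, gclc, gsr, mgst3a and selenbp1 on each array (points, orange for hMYC-ER and blue for hlk), with the mean and SD of each group in black and a ring around hlk array 7; the y axes start at different values. The groups are apart for 7 of the 8 genes and overlap for gsr, where 1 hlk array at 8.32 lies above the lowest hMYC-ER array.

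The paralogues of glutathione peroxidase 1, the abundant cytosolic selenoenzyme that reduces hydrogen peroxide with glutathione, differed between the models in opposite directions. The gene gpx1a ran from 10.87 to 11.51 (median 11.13) on hMYC-ER arrays and was 10.02, 8.84 and 8.81 on hlk arrays 7, 8 and 9. Every hMYC-ER array exceeded every hlk array, with array 7 the nearest, and the difference was 1.95 (SE 0.29, adjusted p 0.0021), or 3.86-fold. Its paralogue gpx1b ran from 5.31 to 6.05 (median 5.59) on hMYC-ER arrays and was 7.23, 6.62 and 7.06 on hlk arrays, again with no overlap. It was dim in both models and 2.48-fold higher on hlk arrays (-1.31, SE 0.21, adjusted p 0.0030). Over 17 alternative fits the difference of gpx1b ran from -1.48 to -0.96, each past the threshold. Without hlk array 7 the differences of gpx1a and gpx1b were 2.35 and -1.18, both past the threshold.

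Glutathione peroxidase 4 reduces lipid peroxides in membranes and thereby holds back ferroptosis, an iron-dependent form of cell death. Of its paralogues, gpx4b ran from 10.85 to 11.87 (median 11.48) on hMYC-ER arrays and was 10.95, 10.02 and 10.09 on hlk arrays. Array 7 lay inside the hMYC-ER range and the other two hlk arrays below it, and the difference was 1.12 (SE 0.27, adjusted p 0.0203), 2.18-fold. The call for gpx4b ended without array 8 or without array 9 (adjusted p 0.0747 and 0.0760), and the difference was 1.42 without array 7. The paralogue gpx4a had 6.55 ± 0.37 (SD, n = 6) on hMYC-ER arrays and 7.25 ± 0.84 (SD, n = 3) on hlk arrays and did not pass (-0.70, SE 0.36, adjusted p 0.214), although it did without array 9 (-1.14, adjusted p 0.0385). A further peroxidase gene, gpx8, whose product lies in the endoplasmic reticulum, had a difference of 0.92 (SE 0.35, adjusted p 0.0984) at signals near the floor, and passed without array 4 (1.1, adjusted p 0.0324).

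Peroxiredoxins are thiol peroxidases that thioredoxin keeps reduced, and 2 of the 5 measured were changed, in opposite directions and both by less than 2-fold. The mitochondrial prdx3 was 11.59 ± 0.20 (SD, n = 6) on hMYC-ER arrays and 11.01 ± 0.32 (SD, n = 3) on hlk arrays, a difference of 0.58 (SE 0.17, adjusted p 0.0425) with 1 hlk array, array 7 at 11.36, inside the hMYC-ER range. The endoplasmic reticulum enzyme gene prdx4 was 10.63 ± 0.15 (SD, n = 6) and 11.14 ± 0.29 (SD, n = 3), which is a difference of -0.51 (SE 0.15, adjusted p 0.0409) without overlap. Neither call was firm. For prdx3 it ended in 7 of the 9 fits that left out 1 array, all but those without array 2 or 7 (adjusted p 0.0585 to 0.139), and for prdx4 in 6, those without array 1, 2, 3, 5, 6 or 7 (0.0524 to 0.0922). The cytosolic prdx1 and prdx2 and the mitochondrial and peroxisomal prdx5 did not pass, with differences of 0.14, 0.17 and 0.17. The 3 probe sets of prdx1 differed in sign, from -0.37 to 0.61.

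Of the 5 measured genes of the core thioredoxin system, limma called 0, and 1 had an unadjusted p under 0.05. Thioredoxin itself, txna, had a log2 signal of 14.41 ± 0.18 (SD, n = 6) on hMYC-ER arrays and 14.45 ± 0.11 (SD, n = 3) on hlk arrays, and the difference of -0.04 had a 95% interval of -0.33 to 0.25 (SE 0.13, adjusted p 0.851). Its paralogue txnb ran from 4.00 to 6.59 on hMYC-ER arrays and was 8.43, 6.22 and 6.13 on hlk arrays, a difference of -1.42 with a wide error (SE 0.65, adjusted p 0.164), and -0.67 without array 7. The thioredoxin reductase gene txnrd3 differed by -0.57 (SE 0.21, adjusted p 0.0847), passed without array 3 (-0.67, adjusted p 0.0350) or without array 8 (-0.75, adjusted p 0.0474), and had a second probe set with a difference of 1.00 in the other direction. The thioredoxin inhibitor gene txnipa was 13.15 ± 0.31 (SD, n = 6) and 13.54 ± 0.66 (SD, n = 3), which is a difference of -0.39 (SE 0.29, adjusted p 0.401). Its paralogue txnipb lay at the floor on 7 of the 9 arrays, with a difference of -0.18 (SE 0.17, adjusted p 0.500).

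Proteins that carry a thioredoxin fold for other tasks gave 3 changed genes of 6. The gene txnl1, for a thioredoxin-like protein bound to the proteasome, was higher on hMYC-ER arrays, at 10.41 ± 0.14 (SD, n = 6) against 9.67 ± 0.54 (SD, n = 3) (0.74, SE 0.21, adjusted p 0.0411). Here hlk array 7 at 10.30 lay among the hMYC-ER arrays, and the difference grew to 1.05 without it (adjusted p 0.0010), while the call ended in each of the other 8 such fits (adjusted p 0.0519 to 0.138). The spliceosome gene txnl4a was higher on hlk arrays, at 9.53 ± 0.25 (SD, n = 6) against 10.49 ± 0.62 (SD, n = 3) (-0.96, SE 0.26, adjusted p 0.0332), with overlapping arrays. The gene txndc9, for a phosducin-like protein that binds the cytosolic chaperonin, was also higher on hlk arrays without overlap, at 10.92 ± 0.33 (SD, n = 6) against 11.75 ± 0.41 (SD, n = 3) (-0.83, SE 0.24, adjusted p 0.0398). Each of these 2 calls ended in 7 of the 9 fits that left out 1 array, those of txnl4a without array 1, 2, 3, 5, 6, 7 or 9 (adjusted p 0.0541 to 0.0843) and those of txndc9 without array 1, 2, 4, 5, 6, 7 or 8 (0.0519 to 0.131). The 6 probe sets of txndc5, which did not pass, spread from -0.53 to 1.69, and txndc15 and txnl4b did not pass either (-0.03 and -0.41). Of the 3 glutaredoxins, which reduce protein-glutathione disulfides, limma called 0, and 1 had an unadjusted p under 0.05, glrx, with a difference of 0.52 (SE 0.20, 95% interval 0.07 to 0.98, adjusted p 0.10), which passed without array 8 (0.74, adjusted p 0.0311). The others, glrx3 and glrx5, differed by 0.08 and -0.08. A second, dimmer probe set of glrx3 had a difference of 1.02 (SE 0.37), which did not pass over all probe sets (limma adjusted p 0.095).

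Methionine sulfoxide reductases repair oxidised methionine, and 1 of 4 was changed. The gene msraa ran from 8.61 to 10.04 (median 8.93) on hMYC-ER arrays and was 8.37, 7.23 and 6.53 on hlk arrays 7, 8 and 9. No arrays overlapped, although array 7 came close, and the gene was 3.27-fold higher on hMYC-ER arrays (1.71, SE 0.44, adjusted p 0.0262). The call for msraa ended without array 1, 8 or 9 (adjusted p 0.0506 to 0.0939), the difference was 2.21 without array 7, and 1 of its 2 probe sets passed over all probe sets. The reductases of the B class, msrb1a, msrb1b and msrb3, did not pass, with differences from -0.39 to 0.00.

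The glutathione S-transferases, which join glutathione to electrophiles, numbered 9, of which 1 was higher on hMYC-ER arrays, 1 was higher on hlk arrays and 7 did not pass. The gene mgst3a, for a microsomal enzyme that also reduces lipid hydroperoxides, ran from 9.20 to 9.88 (median 9.62) on hMYC-ER arrays and was 8.31, 7.12 and 7.26 on hlk arrays. All hMYC-ER arrays lay above all hlk arrays, 4.06-fold on average (2.02, SE 0.27, adjusted p 0.0013), with a difference of 2.39 without array 7. The omega-class gene gsto2 was higher on hlk arrays, at 7.54 ± 0.34 (SD, n = 6) against 8.59 ± 0.66 (SD, n = 3), without overlap (-1.05, SE 0.30, adjusted p 0.0391). That call ended in 7 of the 9 fits that left out 1 array, without array 1, 2, 3, 4, 6, 7 or 9 (adjusted p 0.0545 to 0.104), and the difference was -0.70 without array 7. The pi-class gene gstp1.2 and the gene gstcd had differences of -1.07 (SE 0.36, adjusted p 0.0717) and -1.15 (SE 0.50, adjusted p 0.142), and both passed without array 8 (-1.55, adjusted p 0.0077, and -1.89, adjusted p 0.0049). Differences of the other transferases, gsto1, gstt1a, gstt1b and gstk1, lay between -0.59 and 0.19, and the mu-class gene gstm.1 was 12.55 ± 0.17 (SD, n = 6) and 12.55 ± 0.27 (SD, n = 3).

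Ferritin stores iron in a form that cannot take part in the reactions that make hydroxyl radicals, and 1 of 4 ferritin genes was changed. The heavy-chain-like gene fthl27 ran from 13.07 to 13.38 (median 13.09) on hMYC-ER arrays and was 12.47, 12.64 and 12.76 on hlk arrays. The ranges were narrow and apart, and fthl27 was 1.45-fold higher on hMYC-ER arrays (0.54, SE 0.11, adjusted p 0.0107), but it did not pass when arrays were centred on their medians (0.42, adjusted p 0.0859). The heavy chain gene fth1a had signals of 14.89 to 15.22 on hMYC-ER arrays and 14.79 to 14.89 on hlk arrays, with a difference of 0.17 (SE 0.10, 95% interval -0.06 to 0.40, adjusted p 0.265). The genes fthl28 and fthl30 had differences of 0.18 (SE 0.38, adjusted p 0.782) and -0.15 (SE 0.21, adjusted p 0.671). Probe sets of the neighbouring genes fthl27, fthl28 and fthl30 may share target sequence, and this was not tested.

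Selenium-related genes gave both the largest difference of the 66 and a long list that did not pass. The gene selenbp1 encodes a selenium-binding protein that, in humans, oxidises methanethiol and yields hydrogen peroxide, and it is not itself a selenoprotein. Its signals were 7.61, 8.16, 8.39, 8.67, 8.18 and 8.74 on hMYC-ER arrays 1 to 6 and 5.12, 4.00 and 4.06 on hlk arrays 7, 8 and 9. On the hlk arrays it lay at or near the floor, so the difference of 3.90 (SE 0.32, adjusted p 9.8e-05), 14.9-fold higher on hMYC-ER arrays, depends on where the floor is set. It was 4.14 with a floor of 1 in place of 16, 2.29 with a floor of 64, and 4.26 without array 7, each past the threshold.

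Of the 14 selenoprotein genes grouped by name, 2 were higher on hMYC-ER arrays, 1 was higher on hlk arrays and 11 did not pass. The endoplasmic reticulum gene selenom ran from 7.87 to 10.35 (median 9.41) on hMYC-ER arrays, the widest spread among the changed genes there, and was 7.54, 6.36 and 7.08 on hlk arrays. All hMYC-ER arrays were higher, 5.2-fold on average (2.38, SE 0.52, adjusted p 0.0126), with array 2 the lowest of them. The small redox protein gene selenow2a ran from 11.23 to 11.59 (median 11.35) and was 10.62, 10.36 and 10.32 on hlk arrays, again without overlap. It was 1.92-fold higher on hMYC-ER arrays (0.94, SE 0.11, adjusted p 0.0008), but the mean of its 2 probe sets did not pass (1.05, adjusted p 0.0654). The gene selenop, for the plasma protein that carries selenium between tissues, was dim in both models and higher on hlk arrays, at 5.91 ± 0.33 (SD, n = 6) against 6.74 ± 0.42 (SD, n = 3), with overlap (-0.83, SE 0.24, adjusted p 0.0422). That call ended in 7 of the 9 fits that left out 1 array, without array 1, 2, 3, 5, 6, 7 or 8 (adjusted p 0.0587 to 0.134). The liver makes most of this protein, and 1 of 11 measured hepatocyte and plasma genes was higher on hlk arrays, with a summed signal of 309 to 605 on hMYC-ER arrays and 465 to 1187 on hlk arrays, whose part in the value of selenop was not tested. Without array 7, 2 of the 11 were higher on hlk arrays, fgb (-1.82, adjusted p 0.0062) and hp (-2.89, adjusted p 0.0082). The muscle-related gene selenon differed by -1.06 (SE 0.43, adjusted p 0.122) without overlap of the arrays, and the other 10 that did not pass, selenos, selenoh, selenoo1, selenop2, selenot1a, selenot1b, selenot2, selenou1a, selenow1 and selenow2b, lay between -0.61 and 0.57. Of these, selenot2 passed without array 8 (-0.62, adjusted p 0.0393), and selenoo1 in the signals as deposited (0.72, adjusted p 0.0296), although its 2 probe sets differed in sign.

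**Figure D3:**
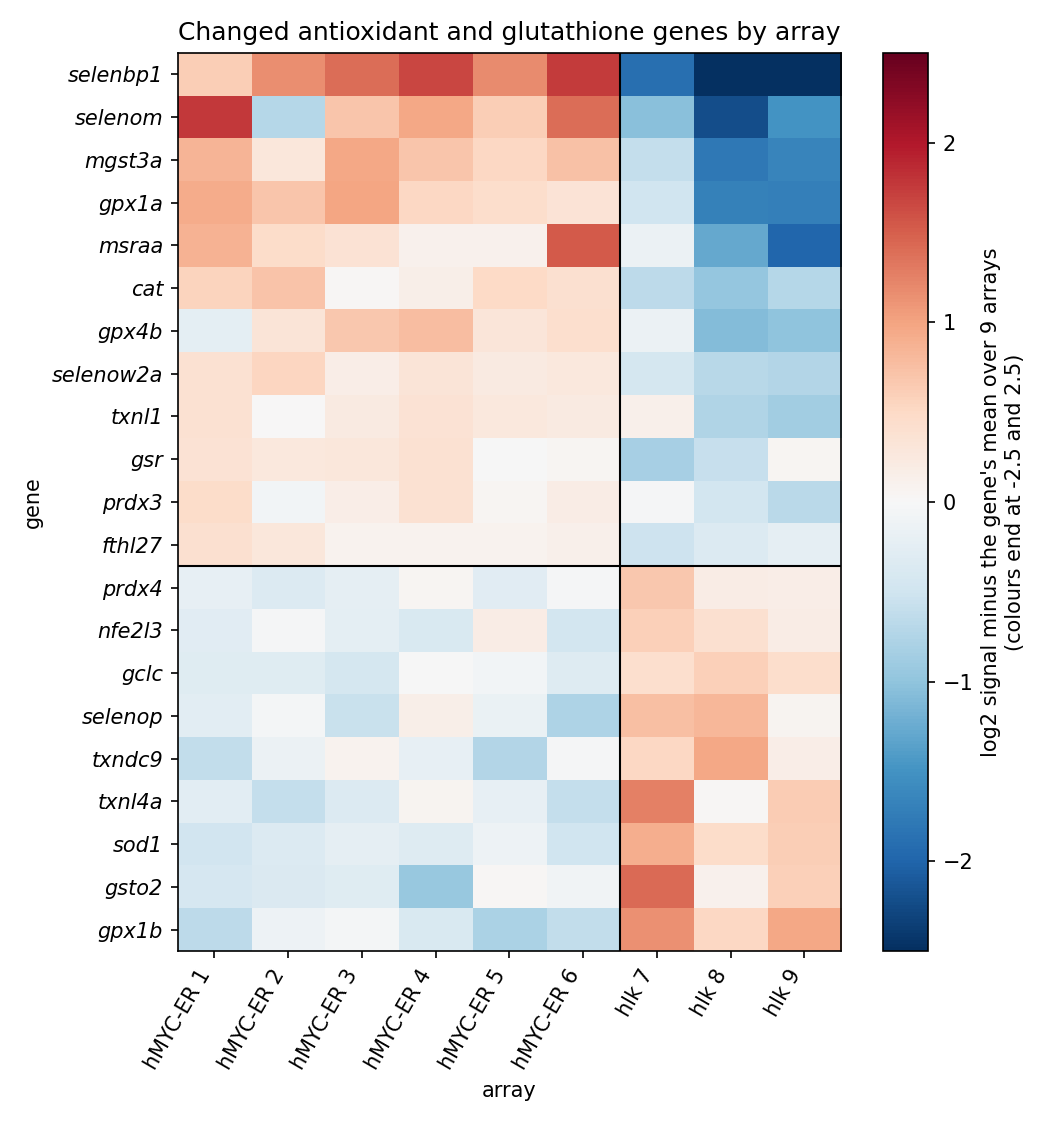
Log2 signal minus the gene's mean over 9 arrays (colour, red above and blue below the mean, ending at -2.5 and 2.5) for the 21 changed genes (y axis) on each array (x axis), with the 12 genes higher on hMYC-ER arrays on top and the 9 higher on hlk arrays beneath. The strongest blue is that of selenbp1 on hlk arrays 8 and 9, at 4.00 and 4.06, with hlk array 7 at 5.12 and the hMYC-ER arrays at 7.61 to 8.74.

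The 45 genes that did not pass had differences of -1.42 to 0.92, with a higher mean on hMYC-ER arrays in 16 and on hlk arrays in 28. Their lowest adjusted p was 0.0717. For 29 of them the 95% interval of the difference lay within 1 log2 unit on either side of 0, so that a larger difference than 2-fold lay outside the interval. The 29 include nqo1, at the floor on all arrays, and txnipb, at it on 7. The narrow intervals of these genes follow from the floor and do not bound a difference. Each interval also covers only the probe set used. Among the 29, other probe sets of txndc5 and glrx3 had differences of up to 1.69 and 1.02. Spread between arrays of a model was similar to that of other genes, with a median SD of 0.27 for the 66 genes on hMYC-ER arrays and 0.43 on hlk arrays, beside 0.33 and 0.43 over all genes. Of the 66 genes, 55 were above the floor on every array, 10 were at it on some, and nqo1 on all.

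The values of the paralogues had been seen when the ratio of signals within pairs was compared between the models, so these ratios are a description, with no test. The 12 pairs were all those of symbols that differ only by a final a or b and all those of members that lie next to each other on a chromosome. The arrays of the models did not overlap in the ratio of 4 pairs. Among single genes 23.1% did not overlap. The share among ratios of other gene pairs was not computed, so 4 of 12 cannot be set against it. The log2 ratio of gpx1a to gpx1b, the latter dim in both models, was 3.26 higher on hMYC-ER arrays (SE 0.32). That of gpx4a to gpx4b was lower (difference -1.82, SE 0.38). For the neighbouring genes selenow2a and selenow2b the ratio was 1.44 higher (SE 0.51), but the lowest hMYC-ER ratio of 5.45 lay only just above the highest hlk ratio of 5.41. For the neighbours gsto1 and gsto2 it was 0.72 higher (SE 0.25), with gsto1 at the floor on 1 array. Without array 7 the difference was 3.53 for the gpx1 pair and -1.73 for the gpx4 pair. Probe sets of close paralogues can share target sequence, so part of such signal may be read by both, and this was not tested. In the other 8 pairs the arrays overlapped, as for txnl4a and txnl4b (-0.55, SE 0.19).

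**Figure D4:**
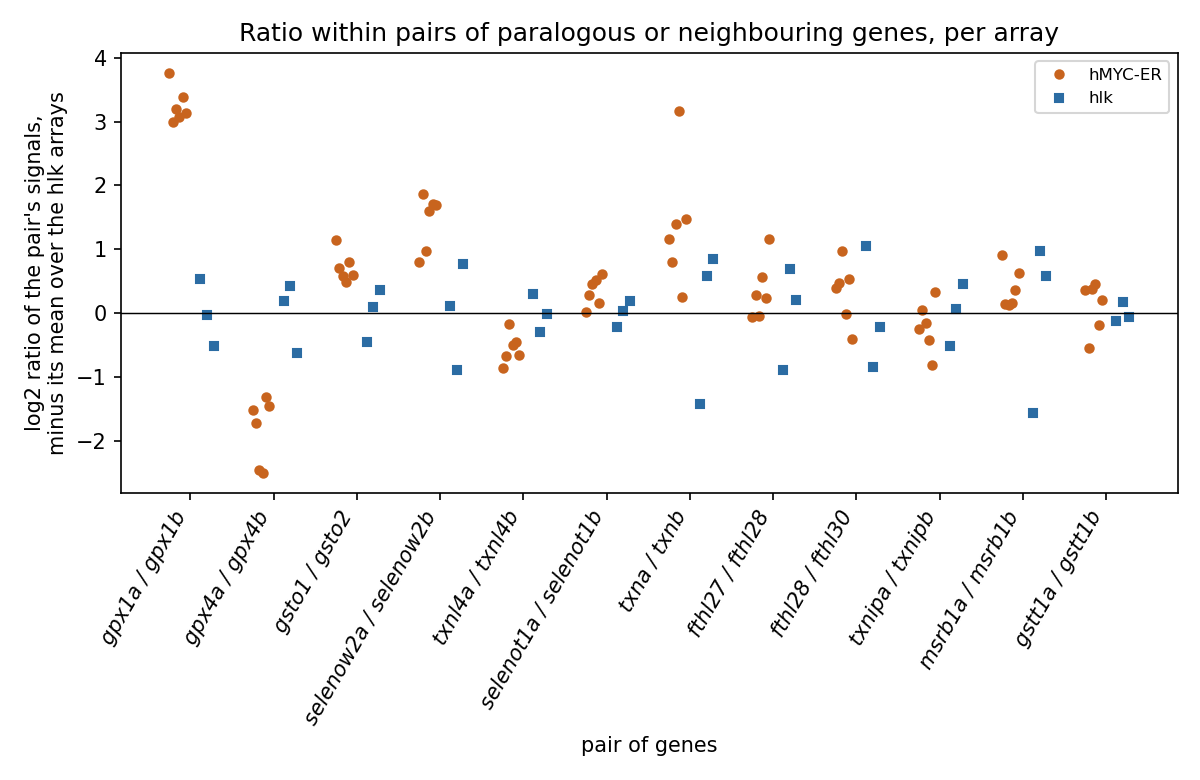
Log2 ratio of the signals within each of 12 pairs of paralogous or neighbouring genes, minus the pair's mean over the hlk arrays (y axis), for each array (orange points hMYC-ER, blue squares hlk). The pair gpx1a and gpx1b stands highest, with a mean ratio 3.26 above that of hlk, and gpx4a and gpx4b lie 1.82 below it.

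Left-out arrays divide the 21 changed genes. The call held whichever array was left out for 10 of them, selenbp1, selenow2a, sod1, mgst3a, cat, gpx1a, gpx1b, gclc, fthl27 and selenom, and was lost at least once for the other 11. Without hlk array 7, 14 of the 66 genes were changed (21.2%), beside 22.3% of all genes, 11 of them higher on hMYC-ER arrays and 3 higher on hlk arrays, namely sod1, gpx1b and gclc. All 14 were among the 21 with the same direction, and the 7 that were lost were gsr, nfe2l3, txnl4a, gsto2, txndc9, prdx4 and selenop. The number of changed members was 11 without hMYC-ER array 1, beside 20.9% of all genes, and 12 without hMYC-ER array 6, beside 18.9%. Array 7 had the highest signal of the 3 hlk arrays in 39 of 65 members, beside 3660 of 8375 genes, and in 10 of the 12 genes higher on hMYC-ER arrays as well as 6 of the 9 higher on hlk arrays. The part of its RNA integrity in these values was not tested.

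**Figure D5:**
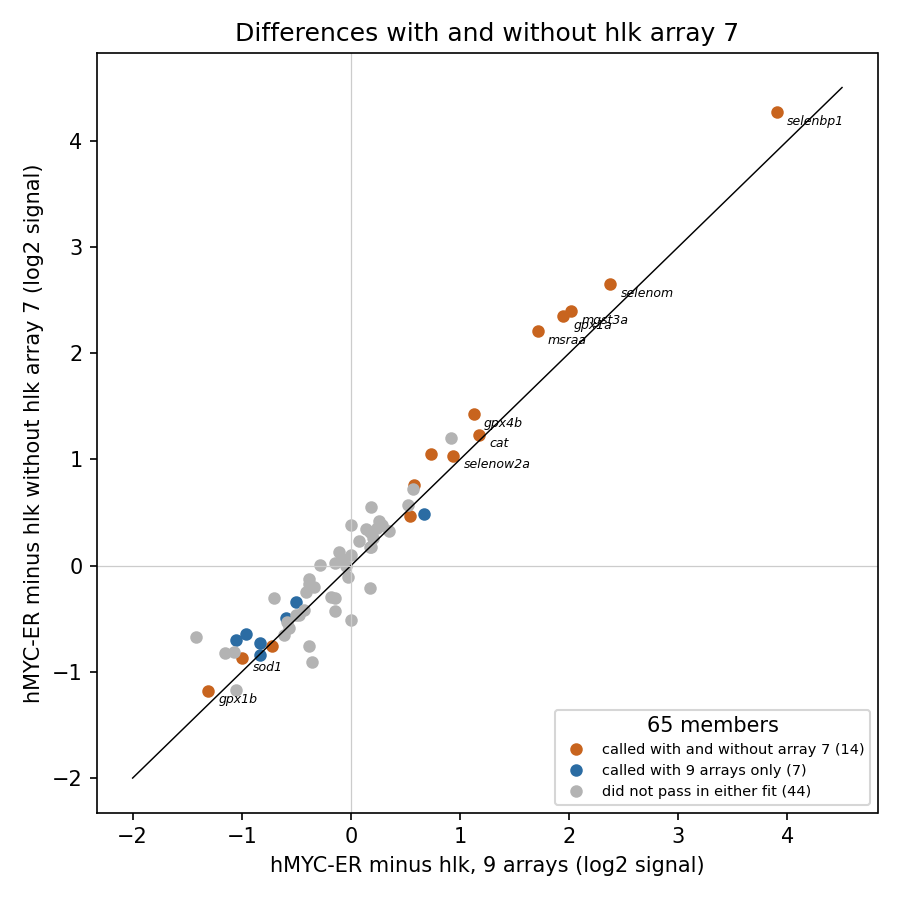
Difference hMYC-ER minus hlk of each of 65 genes over all 9 arrays (x axis) and without hlk array 7 (y axis), both in log2 signal, with the line of equality. Colours separate the 14 genes changed in both fits, the 7 changed only over 9 arrays and the rest; selenbp1 lies farthest out, at 3.90 and 4.26.

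A sort can carry other cell types, and red cells, neutrophils and macrophages hold much antioxidant protein, so their marker genes were read as well. Of 14 measured erythroid genes limma called 0, also at an unadjusted p under 0.05, with a summed signal of 751 to 1058 on hMYC-ER arrays and 413 to 1311 on hlk arrays, and the haemoglobin gene hbaa1 was highest on hlk array 7, at 9.56. Without array 7, limma called 1 of the 14, hbaa1, at 8.37 to 9.22 on hMYC-ER arrays against 6.36 and 6.78 on hlk arrays 8 and 9 (2.32, adjusted p 0.0006). Of 8 neutrophil genes 3 were higher on hMYC-ER arrays, ncf1, srgn and nccrp1, and the summed signal of the 8 was 12280 to 21605 against 611 to 1043. Most of the sum on hMYC-ER arrays came from ncf1, at 13.29 to 14.17 there and at 5.70, 5.44 and 6.04 on hlk arrays. The sum is thus no measure of neutrophils as a whole. The other 5 genes, mpx, lyz, mmp9, mmp13a and cpa5, did not pass, with differences from -1.05 to 0.07. Of the defining neutrophil genes, mpx lay at or near the floor in both models, at 4.00 to 5.19 on hMYC-ER arrays and 4.00, 5.75 and 4.00 on hlk arrays, and lyz stood at 5.63 to 7.01 and at 6.58, 4.88 and 6.43. Of 9 macrophage and dendritic genes 1 was higher in each model, with summed signals of 6460 to 8190 and 10154 to 12611. The gene grna was higher on hMYC-ER arrays (1.68, limma adjusted p 0.0056) and cd68 on hlk arrays (-0.99, limma adjusted p 0.0010). Most of the sum on hlk arrays came from cd68, at 13.22, 12.85 and 12.95 there, so this sum is no measure of macrophages as a whole either. The other 7 did not pass, with differences from -1.80 to 0.42. The part of such cells in the differences of the antioxidant genes was not tested.

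Among 163 other listed genes of glutathione, NADPH, iron, selenium and stress pathways, 73 were measured and 19 were changed (26.0%, beside 22.0% of all genes), 9 higher on hMYC-ER arrays and 10 higher on hlk arrays, with a median difference of 0.15. In cysteine and glutathione supply, 2 of 16 were changed, both higher on hMYC-ER arrays. These were chac1, which breaks down glutathione, at 13.58 ± 0.31 (SD, n = 6) against 11.997 ± 0.37 (SD, n = 3) (1.59, SE 0.22, adjusted p 0.0016), and cth, which makes cysteine from cystathionine, at 11.94 ± 0.18 (SD, n = 6) against 9.98 ± 1.14 (SD, n = 3) (1.95, SE 0.41, adjusted p 0.0113). The signal of cth was lowest on hlk array 7, and without it the difference was 1.31 (adjusted p 0.0020). In selenoprotein synthesis, the enzyme gene sepsecs, which makes selenocysteine on its transfer RNA, was higher on hMYC-ER arrays (1.24, SE 0.17, adjusted p 0.0015), and sephs1, related to selenophosphate synthetase, was higher on hlk arrays (-0.84, SE 0.18, adjusted p 0.0133), out of 2 measured.

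NADPH supply, which feeds both the glutathione and the thioredoxin cycles, had 5 of 12 measured genes changed, 2 higher on hMYC-ER arrays and 3 higher on hlk arrays. The folate enzyme gene mthfd1b and the pentose phosphate enzyme gene pgd were higher on hMYC-ER arrays, by 1.74 log2 units (SE 0.33, adjusted p 0.0072) and 0.96 (SE 0.19, adjusted p 0.0088). The mitochondrial genes mthfd2 and nadk2 were higher on hlk arrays, with differences of -2.26 (SE 0.56, adjusted p 0.0213) and -0.76 (SE 0.19, adjusted p 0.0219), and the fifth gene, also higher on hlk arrays, was idh2. The call for mthfd2 ended without array 7 or 9 (adjusted p 0.0617 and 0.0719), and me3, for a malic enzyme, passed without array 7 (0.73, adjusted p 0.0109).

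Iron and lipid peroxidation genes included 4 changed of 11. The ferritin autophagy receptor gene ncoa4 (-0.88, SE 0.15, adjusted p 0.0037), the phospholipid-remodelling gene lpcat3 (-1.26, SE 0.23, adjusted p 0.0053) and the haem synthesis gene alas1 (-0.998, SE 0.28, adjusted p 0.0339) were higher on hlk arrays. The iron importer gene slc11a2 was higher on hMYC-ER arrays (0.80, SE 0.23, adjusted p 0.0394). The calls for alas1 and slc11a2 each ended in 7 of the 9 fits that left out 1 array (adjusted p 0.0545 to 0.118 and 0.0514 to 0.121).

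Of 4 measured NRF2 regulation genes outside the 66, sqstm1, whose product p62 can bind KEAP1, was higher on hMYC-ER arrays, at 9.98 ± 0.24 (SD, n = 6) against 8.40 ± 1.07 (SD, n = 3) (1.59, SE 0.40, adjusted p 0.0230). Of 16 oxidative stress response genes, 2 were higher on hMYC-ER arrays and 3 on hlk arrays. The former were oxr1b (2.86, SE 0.62, adjusted p 0.0126) and the kinase gene oxsr1a (2.94, SE 0.71, adjusted p 0.0197), both lowest on hlk array 7, at 5.70 and 4.00. The latter included nudt1, which clears oxidised nucleotides (-1.34, SE 0.21, adjusted p 0.0027), and sesn3, of the sestrin family (-1.01, SE 0.27, adjusted p 0.0288), with trap1 the third. Without array 7 the difference of oxr1b was 1.97 (adjusted p 0.0105), and the calls for oxsr1a, sesn3 and trap1 ended (adjusted p 0.0702, 0.0690 and 0.0649). In detoxification and export, limma called 0 of 12 genes, and 1 had an unadjusted p under 0.05. Without array 7, 2 of these passed, park7 (0.72, adjusted p 0.0164) and aldh2.2 (1.40, adjusted p 0.0276), both higher on hMYC-ER arrays. Over the whole list, 10 genes were higher on hMYC-ER arrays and 7 on hlk arrays without array 7 (23.3%, beside 22.3% of all genes), and 12 of the 19 calls held whichever array was left out, the others being those of alas1, idh2, mthfd2, oxsr1a, sesn3, slc11a2 and trap1.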

How the data were processed

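Gene expression was measured in 9 samples on Affymetrix zebrafish arrays, from 100 ng of total RNA each, per the labels' protocols. The deposited table holds 1 linear fluorescence intensity per probe set and array. The authors had scaled these intensities, since the 2% trimmed mean was 500.1 or 500.2 on each array. The algorithm behind them was not given in the sources used here. No detection calls were used, so the floor stands in for a background limit.

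Of 15617 probe sets, 115 controls were left out of the tests. Of the 15502 others, 10795 had 1 gene symbol in the platform annotation, 135 had several and 4572 had none. Probe sets with several symbols gave no gene name. All 66 symbols of the antioxidant and glutathione genes, read by 83 probe sets, were unchanged in a RefSeq gene table of assembly GRCz12tu, used for names and neighbours only. Array medians of log2 intensity differed by 0.31, above a limit of 0.1, so the arrays were quantile normalized, given a floor of 16 and converted to log2. limma 3.58.1 (lmFit, eBayes; R 4.3.3) compared the models, with p-values adjusted over 8793 genes by the Benjamini-Hochberg method, and the fit was tested on simulated data. Python 3.11.15 with matplotlib 3.10.9 drew the figures.

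The members, lists, markers and pairs were chosen with earlier results of these data known. Every member could be named. Differences are given for each changed member and for regulators, glutathione synthesis genes, dismutases, catalase, the thioredoxin system, gpx4 and ferritin genes, and of the other pathway list up to 4 changed genes per sublist by smallest p. Other scalings, floors, filters, priors, array weights, probe set rules and left-out arrays were tried. The number of arrays limits the precision, and no batch or date is given.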

Additional observations from a re-analysis of the deposited data

Results flagged for a closer look

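In 4 of the 65 genes examined, 1 of the 6 hMYC-ER arrays stood apart from the others of its group, by Dixon's test at its 95% critical value for 6 values. Chance alone gives such a result in about 1 of 20 groups. The gene txnrd3 was highest on array 3, at 10.56, with the nearest array at 10.07. The gene selenou1a was highest on array 4, at 11.09, with the nearest at 10.82. The gene msrb1a was highest on array 1, at 7.68, with the nearest at 7.11. The gene txnipb was at 4.29 on array 5 and at the floor of 4.00 on the others. With the other values tied at the floor, any value above it would be flagged. The rate of 1 in 20 therefore does not apply to txnipb. None of these 4 genes was among the 21 changed genes.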

How the results depend on the processing

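In 17 alternative fits all 21 changed genes kept their direction, and 8 of them (selenbp1, sod1, mgst3a, cat, gpx1a, gpx1b, gclc and selenom) passed in every fit. The count of changed members fell from 21 to 9 when a 2-fold difference was also required (7 higher on hMYC-ER arrays, 2 on hlk arrays), and lay between 11 and 18 when 1 array was left out, with 11 without hMYC-ER array 1 and 12 without hMYC-ER array 6. The count higher in hlk was 5 with a floor of 1, 3 with array weights, and 3 to 10 when 1 array was left out, 3 without array 1, 6 or 7, 4 without array 2 and 5 without array 3 or 5. A 2-fold minimum left 6 other pathway genes higher in hlk, and 1154 of all genes, 511 of them higher in hlk. A reversed direction was seen only for genes that did not pass. Centring gave -0.042 for fth1a, -0.014 for fthl28, -0.0032 for prdx5, -0.064 for glrx3 and -0.025 for msrb1a. The mean of all probe sets gave 0.22 for txnrd3, -0.33 for selenoo1 and 0.33 for txndc5. A floor of 1 gave 0.13 for txnipb, and array weights gave 0.0036 for selenou1a, 0.19 for selenow1, -0.30 for msrb1a and 0.049 for gstm.1. Leaving out 1 array gave -0.91 to 0.14 for nfe2l2a, -0.036 to 0.40 for gclm, -0.21 to 0.46 for prdx2, -0.29 to 0.048 for txnipb, -0.44 to 0.0055 for txndc5, -0.11 to 0.076 for txndc15, -0.070 to 0.23 for glrx3, -0.17 to 0.066 for glrx5, -0.15 to 0.55 for fthl28, -0.43 to 0.13 for msrb3, -0.51 to 0.39 for msrb1a, -0.15 to 0.099 for gstm.1, -0.26 to 0.027 for selenot1b, -0.29 to 0.12 for selenou1a and -0.36 to 0.39 for selenow1. For the pair ratios, which were added after seeing the data, the direction of the 4 without overlap did not change under any scaling, floor or left-out array tried. The floor of 64 says little for 2 of them. With it gsto1 lay at the floor on every array and selenow2b on most. The ratio then followed mainly gsto2 or selenow2a alone. The cause of these changes was not tested. No paired analysis was possible because the arrays of the models, numbered 1 to 6 and 7 to 9, share no number. Signals near the floor, as for nqo1, txnipb and gsto1, limit what can be seen.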
